A study of Homo sapiens with 12 samples.

Results

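The metallothioneins described here are 6 human genes, MT1E, MT1F, MT1G, MT1M, MT1X and MT2A, taken by gene name from a table of 58302 genes. Metallothioneins are small, cysteine-rich proteins of the cytosol and nucleus that bind zinc and copper, and cadmium where it is present. Their genes lie side by side on chromosome 16 and are classically switched on by metals through the zinc-sensing transcription factor MTF1, and several of them, MT2A above all, also by glucocorticoids. In thyroid papillary carcinoma, MT1G in particular is known as a gene that is often silenced.

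RNA was sequenced from TPC1, an established cell line from a papillary thyroid carcinoma, wild type for Dicer1 and untreated, and from the lines D11, WB1 and TD5, which were derived from it with a CRISPR-Cas9 plasmid aimed at exon 11 of Dicer1 and carry the genotype Dicer1 (+/−). Dicer1 is the nuclease that releases mature microRNAs from their precursors. Each of the lines D11, WB1 and TD5 is 1 clone, so a difference between a clone and TPC1 cannot be told apart from a difference between any single-cell clone and its parent line, and TPC1 itself was not transfected. Each line had 3 libraries, 12 in all, and the labels give the same growth medium for all 12. The labels do not say whether the replicates were separate cultures, so the p-values below measure only the spread between these libraries. The comparison of lines asks whether loss of 1 Dicer1 allele alters the transcriptome of thyroid carcinoma cells.

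Values are reads scaled to 20000000 per library, called scaled reads below. The depth behind them was estimated at 12700000 to 21020000 reads per library, and a floor of 3 reads came to between 2.85 and 4.73 scaled reads, which covers counting error only. Fold changes are differences of log2(value per 1000000 + 1), a scale that understates the change of weakly expressed genes, and calling a gene required both a change of at least 1.5-fold and a p under 0.05 from limma after Benjamini-Hochberg adjustment over all 16027 genes tested. DICER1 ranged from 1101 to 1360 scaled reads in TPC1, from 977 to 1093 in D11, from 815 to 939 in WB1 and from 627 to 809 in TD5, and in the same test it was called lower in TD5 (log2 fold change −0.77) but not in WB1 (−0.43) or D11 (−0.19). The clone values of DICER1 depended on the processing: D11 was −0.41 after a correction for GC content and −0.10 without TPC1 replicate 1, and WB1 was −0.62, and called, after the GC correction. Of the thyroid follicular markers reported, TSHR, NKX2-1 and SLC5A5 were at 0 in all 12 libraries and TG was between 11 and 27 scaled reads. PAX8 was 7248 to 8549 in TPC1, 7547 to 8088 in D11, 8397 to 9879 in WB1 and 8950 to 9753 in TD5, and was not called. FOXE1, a thyroid transcription factor, was called lower in every clone, with 280 to 316 in TPC1, 123 to 171 in D11, 112 to 151 in WB1 and 93 to 131 in TD5. The keratins KRT8 and KRT18 carried the epithelial list, whose sum was 21033 to 24052 in TPC1 and 16609 to 19018 in the clones. The other epithelial markers were almost absent, with at most 6 scaled reads of KRT19, 5 of EPCAM and 2 of CDH1 in any library. The leukocyte and endothelial lists summed to at most 9. The 5 fibroblast markers summed to 257 to 362 in TPC1, 165 to 203 in D11, 233 to 355 in WB1 and 187 to 219 in TD5, with DCN at 0 throughout. These sums hide opposite moves, since LUM was 63 to 78 in TPC1, 0 in all D11 libraries, at most 2 in TD5 and 138 to 212 in WB1, where it was called higher, and PDGFRB was 112 to 192 in TPC1 and 37 to 56 in WB1, where it was called lower. The part of these marker differences in the results below was not tested. In bulk samples fewer cells of a type and less RNA per cell cannot be told apart.

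Of the 6 metallothioneins, 3 were expressed in these cells and 3 were not measurable. MT2A, MT1X and MT1E were read in all 12 libraries and passed the filter of at least 1 per 1000000 in at least 3 libraries. MT1M was at 0 in all 12 libraries, MT1F had 2 scaled reads in TPC1 replicate 2 and 0 elsewhere, and MT1G had at most 3 scaled reads in any library. MT1F, MT1G and MT1M stayed at or under the floor of 3 reads in every library, so a level below that floor could not be detected and these genes entered no test.

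All 6 genes lie on GRCh38 chromosome 16 within the metallothionein cluster, which runs from 56565073 to 56684196, or 119.1 kb. In order along the chromosome they are MT2A (ENSG00000125148, 56608584 to 56609497), MT1E (ENSG00000169715, 56625475 to 56627112), MT1M (ENSG00000205364, 56632659 to 56633981), MT1F (ENSG00000198417, 56657731 to 56660698), MT1G (ENSG00000125144, 56666730 to 56668065) and MT1X (ENSG00000187193, 56682470 to 56684196). MT1G is read from the minus strand and the other five from the plus strand. MT1M, MT1F and MT1G, the members that were not measurable, lie between MT1E and MT1X.

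MT2A, the metallothionein that most human tissues express at the highest level, was the most abundant member on any scale. Per length it reached 708 reads per 1000000 per kb of transcript, rank 71 of 15879 tested genes with an annotated length. MT1X, a widely expressed isoform, had a level of 39.6 per 1000000 per kb and rank 2348. MT1E, which also encodes an MT1 isoform, had 21.9 per 1000000 per kb and rank 4034. These levels are means over all 12 libraries, and the order of MT1E and MT1X in scaled reads differed between lines, as given below. The transcripts used have 401 bases for MT2A, 404 for MT1X and 746 for MT1E. MT2A made up 88.7% ± 0.6 (SD, n = 3) of the summed scaled reads of all 6 members in TPC1, 88.0% ± 0.6 in D11, 92.5% ± 0.4 in WB1 and 89.5% ± 0.3 in TD5.

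The promoters of MT2A and MT1X are shown because metal response elements, the sites that MTF1 binds, are the feature by which the family is known, and because both genes are expressed here. RefSeq promoter sequences (GRCh38.p14) were matched for these 2 of the 6 members. The 250 bases before the start of MT2A are chr16:56608334-56608583 on the plus strand and those of MT1X are chr16:56682220-56682469 on the plus strand. Capitals mark matches, on either strand, to the core letters TGCACNC or TGCGCNC.
MT2A: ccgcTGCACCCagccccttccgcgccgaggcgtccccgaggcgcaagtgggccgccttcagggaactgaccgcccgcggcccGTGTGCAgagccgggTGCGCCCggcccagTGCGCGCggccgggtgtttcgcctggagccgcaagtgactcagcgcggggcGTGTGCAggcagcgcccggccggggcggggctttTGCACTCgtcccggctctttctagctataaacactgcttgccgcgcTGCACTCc
MT1X: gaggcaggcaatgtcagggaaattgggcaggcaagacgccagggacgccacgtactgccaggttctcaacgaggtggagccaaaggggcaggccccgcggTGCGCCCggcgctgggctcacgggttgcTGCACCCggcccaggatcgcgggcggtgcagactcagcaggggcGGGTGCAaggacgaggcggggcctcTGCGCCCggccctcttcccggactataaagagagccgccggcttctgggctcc
MT2A held 7 matches, 5 of them on the plus strand, and MT1X held 4, of which 3 were on the plus strand. None of these matches overlapped another. Both promoters also hold the letters TATAAA, searched on the strand of the gene alone, starting at base −29 of MT2A and at base −30 of MT1X counted back from the start of the gene. Of 35116 promoters of this length, 24.8% held at least 1 match, 0.37% held as many as MT1X or more, 0.031% as many as MT2A or more, and 6.80% held TATAAA. Family genes that did not pass the expression filter held matches too: MT1H held 8, and MT1B and MT4 held 3 each. The matches are thus not particular to the expressed members. A match is a description of the letters and not a measured site.

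MT1E differed most between the lines. It had 287, 292 and 376 scaled reads in TPC1, 508, 385 and 428 in D11, 155, 185 and 190 in WB1, with 378, 349 and 392 in TD5. All 3 WB1 libraries were below every library of the other lines, all 3 D11 libraries were above every TPC1 library, and TD5 overlapped with both TPC1 and D11. The means were 318 ± 50.0 (SD, n = 3) in TPC1, 440 ± 62.4 in D11, 177 ± 18.9 in WB1 and 373 ± 21.9 in TD5.

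Against TPC1, MT1E fell in WB1 to 0.583 times the TPC1 level. The log2 fold change was −0.78 (standard error 0.12, 95% interval −1.03 to −0.53, adjusted p = 0.000211 by limma). It was the 1 member called among the 3 tested in WB1, where 1.59% of all tested genes were called lower and 4.99% were called in either direction. In D11 the fold of MT1E against TPC1 on that scale was 1.36 (log2 fold change 0.45, 95% interval 0.20 to 0.70, adjusted p = 0.00978 by limma), which is short of 1.5-fold, and 0 of 3 members were called there against 4.84% of all genes. At an unadjusted p under 0.05, 2 of the 3 tested members, MT1E and MT1X, differed between D11 and TPC1. In that comparison 33.3% of all genes passed even the adjusted p. Without D11 replicate 1, the highest library, the MT1E value in D11 was 0.34 with an adjusted p of 0.0526. In TD5 the log2 fold change of MT1E was 0.22 (95% interval −0.03 to 0.47, adjusted p = 0.237 by limma), and 0 of 3 members were called there against 2.6% of all genes, with 0 at an unadjusted p under 0.05. By voom on the estimated reads 0 of 3 members were called in D11 and 0 in TD5 too. These 3 comparisons share the TPC1 libraries.

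Between clones, where TPC1 does not enter the difference, MT1E separated WB1 from both other clones. On the scale of the test the fold of WB1 against D11 was 0.428 (log2 fold change −1.22, 95% interval −1.47 to −0.97, adjusted p = 2.38e-06 by limma). The fold of TD5 against WB1 on that scale was 2.00 (log2 fold change 1.00, 95% interval 0.75 to 1.25, adjusted p = 4.53e-05 by limma). MT1E was the 1 member called in each of these comparisons. For WB1 against D11, 2.85% of all genes were called in either direction and 0.88% were called lower. For TD5 against WB1 these shares were 2.33% in either direction and 0.611% higher. TD5 and D11 differed in MT1E by −0.22 (95% interval −0.47 to 0.03, adjusted p = 0.187 by limma), and 0 of 3 members were called against 3.99% of all genes, with 1, MT2A, at an unadjusted p under 0.05 and 0 called by voom. In order of mean level the lines were thus D11, TD5, TPC1 and WB1. Only the comparisons with WB1 were called. D11 and TD5, TD5 and TPC1, and D11 and TPC1 did not differ beyond the threshold, so their order is one of means.

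**Figure D1:**
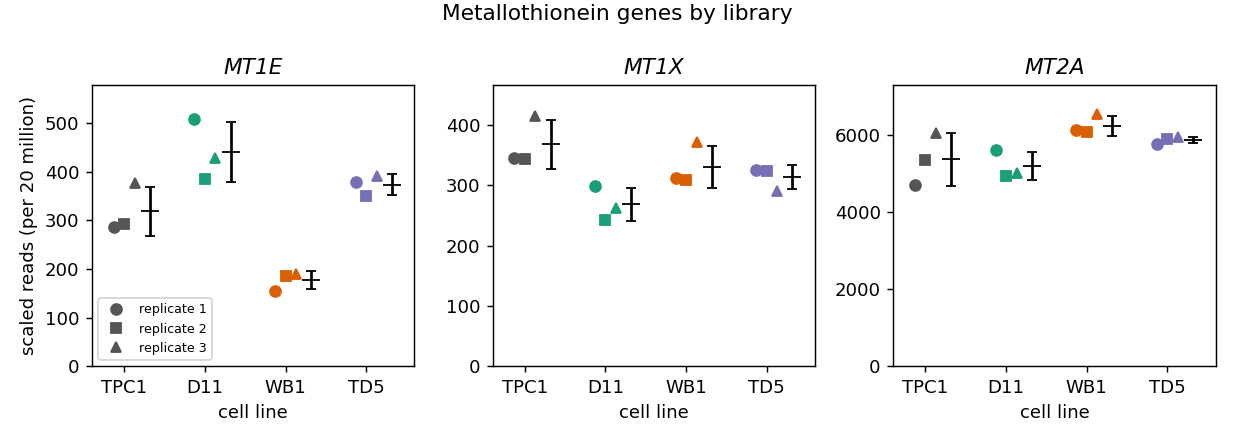
Scaled reads (reads scaled to 20000000 per library, y axis, from 0) of MT1E, MT1X and MT2A in each library of the 4 lines (x axis). Circles, squares and triangles are replicates 1, 2 and 3, and the black dash and bar are the mean and SD. The 3 WB1 libraries lie between 155 and 190 for MT1E, below the other 9, while MT1X and MT2A show smaller shifts.

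MT1X moved less than MT1E and in another order. It had 345, 343 and 415 scaled reads in TPC1, 298, 243 and 263 in D11, 312, 308 and 371 in WB1, with 325, 324 and 291 in TD5. Every D11 and TD5 library was below the lowest TPC1 library, while WB1 overlapped with TPC1. The means were 368 ± 41.0 (SD, n = 3) in TPC1, 268 ± 27.8 in D11, 330 ± 35.3 in WB1 and 313 ± 19.3 in TD5. The log2 fold change against TPC1 was −0.43 in D11 (95% interval −0.65 to −0.21, adjusted p = 0.00623 by limma), or a fold of 0.743 on the scale of the test, and was not called because it is short of 1.5-fold. It was −0.15 in WB1 (95% interval −0.37 to 0.08, adjusted p = 0.300) and −0.21 in TD5 (95% interval −0.44 to 0.01, adjusted p = 0.20). None of the pairs of clones passed the adjusted p, with MT1X differences of 0.28 between WB1 and D11 (adjusted p = 0.127 by limma), 0.21 between TD5 and D11 (adjusted p = 0.148) and −0.07 between TD5 and WB1 (adjusted p = 0.693).

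The MT1X values share transcript with a neighbour. AC026461.1 (ENSG00000259827), a long noncoding RNA gene, is annotated on the same strand with the same start as MT1X, from 56682470 to 56687807, and 22% of the 305 windows of 100 bases in the MT1X transcript also occur in it. The other members shared 0% of their windows with any annotated transcript. AC026461.1 had 251, 245 and 315 scaled reads in TPC1, 210, 184 and 191 in D11, 215, 234 and 272 in WB1, with 219, 227 and 189 in TD5. Its log2 fold change in D11 was −0.43 (adjusted p = 0.0104 by limma), beside −0.43 for MT1X. Its ratio to MT1X was 0.714 to 0.759 in TPC1, 0.705 to 0.757 in D11, 0.689 to 0.760 in WB1 and 0.6495 to 0.701 in TD5. How the counting divided reads between these genes is uncertain.

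MT2A, the bulk of the metallothionein signal, varied least. It had 4703, 5358 and 6071 scaled reads in TPC1, 5632, 4955 and 5028 in D11, 6132, 6082 and 6555 in WB1, with 5790, 5907 and 5955 in TD5. The 3 WB1 libraries were above every library of the other lines, though the lowest of them, at 6082, was close to the highest TPC1 library, at 6071, and TPC1 had the widest spread. The means were 5377 ± 684 (SD, n = 3) in TPC1, 5205 ± 372 in D11, 6256 ± 260 in WB1 and 5884 ± 84.9 in TD5. The log2 fold change against TPC1 was 0.22 in WB1 (95% interval 0.06 to 0.38, adjusted p = 0.0334 by limma), 0.14 in TD5 (95% interval −0.02 to 0.30, adjusted p = 0.261) and −0.04 in D11 (95% interval −0.20 to 0.12, adjusted p = 0.697). Without TPC1 replicate 1, the lowest library, the WB1 value was 0.13 (adjusted p = 0.166). WB1 and D11 differed by 0.27 (adjusted p = 0.0377 by limma, 0.0547 with a replicate block, and 0.17 without D11 replicate 2), so that on the adjusted p alone 2 of 3 members, MT1E and MT2A, differed there, where 8.07% of all genes did. TD5 and D11 differed in MT2A by 0.18 (adjusted p = 0.0973 by limma), and TD5 and WB1 by −0.09 (adjusted p = 0.464). None of these 6 differences reached 1.5-fold, and their intervals all lay within it.

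**Figure D2:**
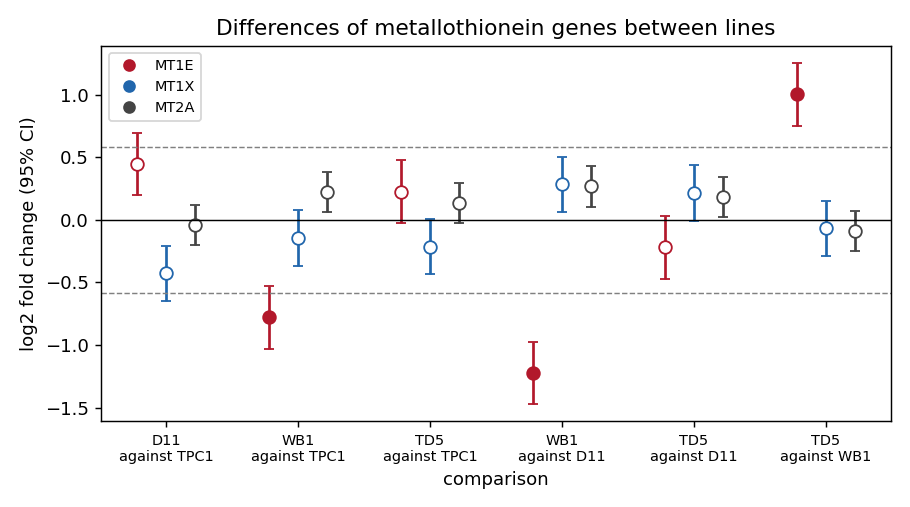
Log2 fold changes with 95% intervals (y axis) of MT1E, MT1X and MT2A in the 6 comparisons between lines (x axis). Filled points were called and open points were not, and the dashed lines mark 1.5-fold. MT1E lies at −0.78, −1.22 and 1.00 in the 3 comparisons with WB1, and every point of MT1X and MT2A lies inside the dashed lines.

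A test for any difference among the 4 lines gave adjusted p-values of 5.20e-06 for MT1E, 0.0205 for MT1X and 0.0267 for MT2A (F test of limma), so 3 of 3 tested members passed where 44.6% of all genes did. Without D11 replicate 2 or without D11 replicate 3, 1 member passed, MT1E. The libraries of the lines did not overlap for 2 of the 3 members between D11 and TPC1, a state that 50.6% of all genes shared, for 2 of 3 between WB1 and TPC1 against 45.3%, and for 1 of 3 between TD5 and TPC1 against 26.5%. With only 3 members tested and these backgrounds, the counts do not set the family apart from other genes.

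The members did not move as a block. In WB1, MT1E was at its lowest while MT2A was at its highest, and in D11 MT1E was at its highest while MT1X was at its lowest. The ratio of MT1E to MT1X, which does not depend on the scaling of the libraries, was 0.832 to 0.906 in TPC1, 1.58 to 1.70 in D11, 0.497 to 0.601 in WB1 and 1.08 to 1.35 in TD5. The 4 lines did not overlap in this ratio. It was chosen after its values were seen and with 3 libraries a line it is given as a description. The ratio of MT1X to MT2A was 0.064 to 0.073 in TPC1 and between 0.049 and 0.057 in every clone library, so TPC1 was above the clones, which overlapped with each other. The sum of the members stayed between 5335 and 7118 scaled reads, or 0.0267% to 0.0356% of a library, and the share of MT1E in it was 5.24% ± 0.33 (SD, n = 3) in TPC1, 7.42% ± 0.50 in D11, 2.61% ± 0.24 in WB1 and 5.67% ± 0.33 in TD5.

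**Figure D3:**
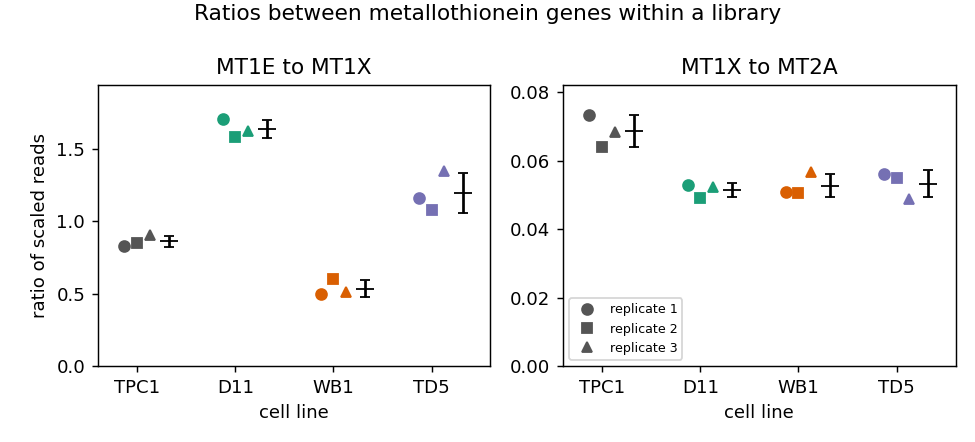
Ratio of the scaled reads of MT1E to MT1X (left) and of MT1X to MT2A (right) in each library (y axes, from 0) by line (x axis). Circles, squares and triangles are replicates 1, 2 and 3, and the black dash and bar are the mean and SD. The left ratio runs from 0.497 in WB1 to 1.70 in D11 with no overlap of lines, and on the right TPC1 lies above all clones.

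Within a line the members did vary together from library to library. Over the 12 libraries, Pearson's r between log2 values was −0.29 for MT1E and MT1X, −0.43 for MT1E and MT2A and 0.46 for MT1X and MT2A. Once the mean of each line was taken off, r was 0.74, 0.79 and 0.76 for the same pairs. The points share libraries and the scaling to the library sum, and these values are descriptions of 12 libraries in 4 groups.

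The 14 other metallothionein family genes with a row in the table added almost no signal, and 0 of them passed the filter. MT1JP, a pseudogene of the cluster, was the highest, with 5, 4 and 5 scaled reads in TPC1, 13, 6 and 4 in D11, 6, 3 and 5 in WB1, with 12, 12 and 11 in TD5. The other 13, which include MT1A, MT1H, MT3 and MT4, reached at most 4 scaled reads in any library. MT1HL1 and MT1CP were at 0 in all 12. The metallothionein RNA measured in these cells was thus MT2A with smaller parts of MT1X and MT1E.

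Genes that supply or sense the metals were compared next, from a list of 36 of which 31 were tested. MTF1, the zinc-sensing activator of the family, had 907, 769 and 764 scaled reads in TPC1, 830, 827 and 867 in D11, 791, 858 and 839 in WB1, with 763, 770 and 726 in TD5. Its log2 fold changes against TPC1 for D11, WB1 and TD5 were 0.05, 0.03 and −0.10, and it was not called (adjusted p = 0.614, 0.779 and 0.398 by limma). Its WB1 libraries lay inside the TPC1 range, and MT1E in the same libraries was below TPC1. The activity of the MTF1 protein was not measured, and a link between these values was not tested.

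Across the metal handling list limma called 0 genes in D11, 0 in WB1 and 1 in TD5, where 1.48% of all genes were called lower, and voom on the estimated reads called 0, 0 and 1. Without TPC1 replicate 1 or without D11 replicate 1 the D11 count was 1. At an unadjusted p under 0.05 there were 11, 11 and 4. The share of all genes at that p was not counted, and it is at least the share at the adjusted p given below. The medians of the log2 fold changes for D11, WB1 and TD5 were 0.05, −0.0033 and −0.04, beside 0.05, 0.06 and 0.00059 over all genes. On the adjusted p by limma alone 9, 6 and 3 of the 31 passed, where 33.3%, 30.9% and 11.9% of all genes did. The called gene was ATP7B, a copper-exporting ATPase, with 347, 302 and 277 scaled reads in TPC1 and 188, 196 and 182 in TD5. Its log2 fold change in TD5 was −0.65 (standard error 0.10, adjusted p = 0.000358 by limma), and −0.57, short of 1.5-fold, without TPC1 replicate 1. It had 242, 221 and 211 in D11 (log2 fold change −0.42) and 282, 287 and 261 in WB1 (−0.14), so it was lowest in TD5. A link of ATP7B with the metallothioneins was not tested. The related copper pump ATP7A was not called in any clone (log2 fold changes 0.23, 0.47 and 0.21 in D11, WB1 and TD5). In WB1 ATP7A passed the adjusted p (0.00788 by limma) but was short of 1.5-fold. Of the 11 copper and other metal genes, 3 were higher and 0 lower in WB1 on the adjusted p alone. In D11 these counts were 0 and 2, and in TD5 0 and 1. The WB1 counts depended on the scaling. They were 2 and 2 with median-of-ratios scaling, 1 and 1 after GC correction, and 2 and 1 after length correction.

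Among the ZnT transporters, which move zinc out of the cytosol, 7 of 10 were tested and all 7 had positive log2 fold changes in D11, with a median of 0.35. Of these, 5 passed the adjusted p but 0 reached 1.5-fold, and 2 passed it with median-of-ratios scaling, GC correction or length correction. SLC30A1, the exporter of the plasma membrane and itself a classical target of MTF1, had 1096, 951 and 1051 scaled reads in TPC1 and 1250, 1482 and 1879 in D11 (log2 fold change 0.55, adjusted p = 0.0221 by limma). It had 1218, 1260 and 981 in WB1 and 920, 836 and 1512 in TD5, both overlapping with TPC1. The size of the D11 shift of the ZnT list depended on the scaling. The median of its 7 tested genes was 0.29 with median-of-ratios scaling. It was 0.04, with 5 of 7 positive, after a correction for GC content. In WB1 and TD5 the list medians were 0.11 and 0.02, and they were −0.04 and −0.02 after the GC correction. The ZIP transporters, which bring zinc into the cytosol, had medians of −0.07, −0.03 and −0.10 over 12 tested genes in D11, WB1 and TD5. Limma called 0 of them, where 4.84%, 4.99% and 2.6% of all genes were called. At an unadjusted p under 0.05 there were 3, 5 and 2, where 33.3%, 30.9% and 11.9% of all genes passed even the adjusted p.

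**Figure D4:**
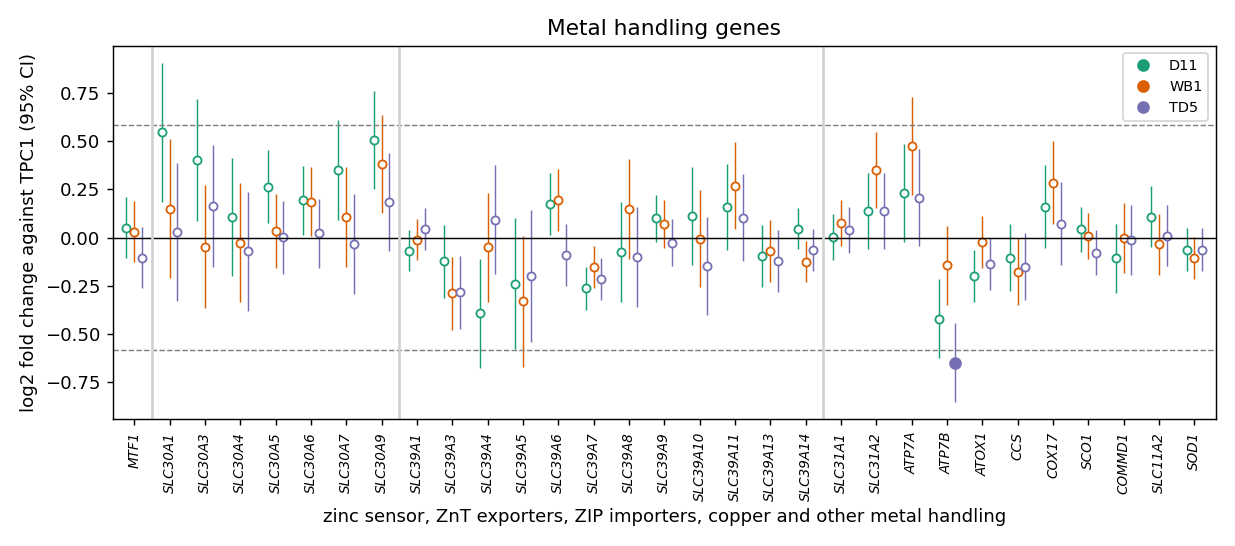
Log2 fold changes against TPC1 with 95% intervals (y axis) of the 31 tested metal handling genes (x axis), for D11, WB1 and TD5. Filled points were called, open points were not, and the dashed lines mark 1.5-fold. ATP7B in TD5, at −0.65, is the single filled point.

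Other known inducers of metallothioneins were read from lists of their target genes. Of 11 heat shock genes tested, limma called 0 in any clone. At an unadjusted p under 0.05 there were 4, 4 and 2 in D11, WB1 and TD5. The list medians for D11, WB1 and TD5 were −0.07, −0.09 and −0.06, beside 0.05, 0.06 and 0.00059 over all genes. Of all genes, 4.84%, 4.99% and 2.6% were called in these clones, and 33.3%, 30.9% and 11.9% passed even the adjusted p. Of 9 glucocorticoid response genes tested, limma called 0 in D11, 0 in WB1 and 2 in TD5, with 3, 5 and 5 at an unadjusted p under 0.05. The 2 in TD5 were called lower, as were 1.48% of all genes there. The counts of 0 changed with the processing, since SGK1 was also called in D11 with median-of-ratios scaling or after GC correction, and DUSP1 in WB1 without TPC1 replicate 2 or without WB1 replicate 1. The called genes were SGK1, a kinase induced by glucocorticoids, which fell from a mean of 346 scaled reads in TPC1 to 188 in TD5 (log2 fold change −0.82, adjusted p = 0.000130 by limma), and DUSP1, a MAP kinase phosphatase, which fell from 1982 to 1271 (−0.64, adjusted p = 0.00149). Without TPC1 replicate 3 or without TD5 replicate 1, DUSP1 was short of 1.5-fold. In the same TD5 libraries MT2A, a glucocorticoid-responsive metallothionein, had a log2 fold change of 0.14. A link of MT2A with these genes was not tested. The medians of the list for D11, WB1 and TD5 were −0.08, −0.02 and 0.06, and the WB1 median was 0.04 after GC correction.

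Genes around the cluster were read in the same libraries. Within 1 Mb of the cluster 67 other genes had a row and 30 were tested. Their median log2 fold changes were −0.11 in D11, −0.08 in WB1 and −0.02 in TD5. The genes that flank the cluster, BBS2 on one side and NUP93 on the other, had −0.06 and −0.17 in WB1, and OGFOD1 and NUDT21 had −0.11 and 0.20, and none was called. In D11, BBS2, NUP93, OGFOD1 and NUDT21 had −0.03, −0.19, −0.04 and 0.44. There NUP93 and NUDT21 passed the adjusted p (0.0393 and 0.00231 by limma) but were short of 1.5-fold. In WB1, where MT1E fell, 3 of the 30 were called, beside 4.99% of all genes. CES1P1 and CES1P2, carboxylesterase pseudogenes at the far end of the window, were lower (log2 fold changes −1.08 and −0.59), and AC009090.4 was higher (0.64). CES1P2 and AC009090.4 lost their call in WB1 without TPC1 replicate 3. AC009090.4 was also called in D11 (0.64) and CES1P2 in TD5 (−0.72), each as the 1 of the 30 called there. Over all genes 4.84% were called in D11 and 2.6% in TD5. AC009090.4 was not called in D11 without TPC1 replicate 1, TPC1 replicate 3 or D11 replicate 3, nor in WB1 without TPC1 replicate 1. CES1P2 was not called in WB1 without WB1 replicate 2 or WB1 replicate 3. The calls also depended on other processing. Of 23 alternatives at the same thresholds, AC009090.4 was called in 17 in D11 and 18 in WB1, and CES1P2 in 19 in WB1. After length correction 0 of the 30 genes were called in D11.

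**Figure D5:**
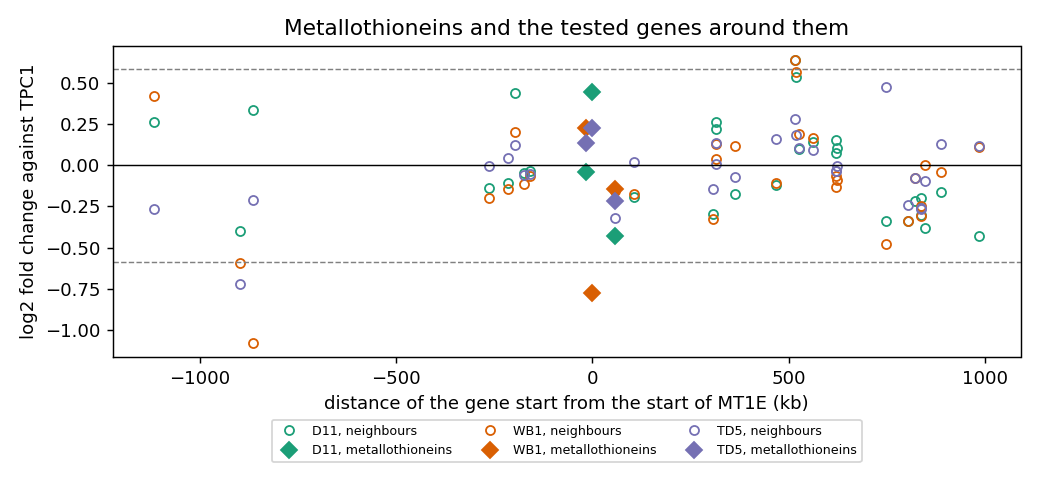
Log2 fold change against TPC1 (y axis) of the metallothioneins (diamonds) and of the tested genes within 1 Mb of the cluster (open circles), by the distance of each gene start from the start of MT1E in kb (x axis), for D11, WB1 and TD5. The dashed lines mark 1.5-fold. MT1E in WB1 lies at −0.78 while the genes nearest to the cluster stay inside the dashed lines.

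The genes whose pattern over the 12 libraries was most like the mean of the 3 expressed members, among 12240 genes with at least 5 per 1000000 outside the family, were FKBP11 (Pearson's r 0.886), AC011466.3 (0.882), PHPT1 (0.874), PABPC1 (0.874) and MGAT5B (0.871). FKBP11 had r of 0.918 with MT1E, −0.02 with MT1X and −0.30 with MT2A, so its likeness was to MT1E, the member with the widest spread. FKBP11 had 714, 661 and 776 scaled reads in TPC1, 784, 708 and 724 in D11, 596, 576 and 621 in WB1, with 741, 770 and 745 in TD5, lowest in WB1 as MT1E was. These are the highest of many correlations over libraries that share their line, and they are given as a description.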

How the data were processed

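The 12 libraries (3 each from TPC1, D11, WB1 and TD5) were grouped by their titles. The authors prepared TruSeq Stranded mRNA libraries, mapped reads with STAR 2.5.3a to GRCh38, counted them with HTSeq 0.9.1 on Ensembl 90 genes and normalized to a total of 20000000. Their deposited values, whole numbers, were treated as a score, not as raw reads, so edgeR, which the authors used and the design named first, was replaced by limma 3.58.1 (R 4.3.3) with a mean-variance trend on log2(value per 1000000 + 1), 1 mean per line over all libraries. Library sums were 20009833 to 20014191, and depth was estimated from the steps between whole numbers. The filter kept genes at 1 per 1000000 or more in 3 or more libraries.

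The members and gene lists were chosen with earlier results of these data known. Genes named in the text were the 6 members, DICER1, other family genes above 0, listed metal, heat shock and glucocorticoid genes and genes within 1 Mb called in at least 1 clone, and the 5 genes most like the members. Markers, MTF1, SLC30A1, ATP7A, the flanking genes and AC026461.1 were named in addition, after their values were seen, and 1 marker is not reported here. Positions and lengths came from GENCODE 44, with lengths for 99.1% of tested genes, and promoters from RefSeq. Replicate numbers pair libraries where all 3 correlations of same-numbered deviations exceed 0.1, which held for D11 and TD5 (0.11, 0.17 and 0.35) and for no other lines (−0.27 to 0.11). Alternatives covered scaling, filter, pseudocount, threshold, a replicate block, voom on estimated reads, GC and length corrections (with the block, added after seeing the data) and leaving out each library. The fit was tested on simulated data. Tables and plots were made with numpy 2.4.6, pandas 2.3.3 and matplotlib 3.10.9 under Python 3.11.15.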

Additional observations from a re-analysis of the deposited data

Results flagged for a closer look

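Only the tested members, DICER1 and the listed or neighbouring genes named because a clone called them were looked at for differences between clones. Among these the effects against TPC1 differed from each other, by limma's direct test of one clone against another, in 11 cases, and TPC1 cancels in these differences. Genes beside the members and DICER1 were picked by a call in these same libraries, so the count of 11 is not a result about them. For WB1 against D11, 8.07% of all genes passed the adjusted p. At both thresholds 2.85%, 3.99% and 2.33% of all genes were called in WB1 against D11, TD5 against D11 and TD5 against WB1. MT1E differed by −1.22 (log2) between WB1 and D11 (adjusted p = 2.38e-06 by limma) and by 1.00 between TD5 and WB1 (adjusted p = 4.53e-05), both past 1.5-fold. MT2A differed by 0.27 between WB1 and D11 (adjusted p = 0.0377), short of 1.5-fold.

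Among the genes named beside the family, CES1P1, near the edge of the window around the cluster, differed by −1.42 between WB1 and D11, by −0.55 between TD5 and D11 and by 0.87 between TD5 and WB1 (adjusted p = 2.79e-05, 0.0296 and 0.0039 by limma). CES1P1 had 6, 7 and 6 scaled reads in WB1 and 25 to 44 in TPC1, so its values rest on few reads. ATP7B differed by −0.51 and SGK1 by −0.41 between TD5 and WB1 (adjusted p = 0.00325 and 0.0205 by limma), and DUSP1 differed by −0.42 between TD5 and D11 (adjusted p = 0.0139). DICER1 differed by −0.58 between TD5 and D11 and by −0.34 between TD5 and WB1 (adjusted p = 0.000657 and 0.0307 by limma). MT1E was lowest in WB1 and DICER1 was lowest in TD5, and a link between them was not tested.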

How the results depend on the processing

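MT1E was called in 24 of 24 alternatives at the same thresholds for WB1 against TPC1 (log2 fold change −0.84 to −0.63), WB1 against D11 (−1.31 to −1.02) and TD5 against WB1 (0.82 to 1.08), and of 450 member values under alternatives 442 kept direction and call. Reversals concerned values near 0: MT2A in D11 against TPC1 was 0.044 after GC correction, with or without the block, and −0.13 to 0.050 when 1 library was left out (above 0 without TPC1 replicate 3), and MT1X in TD5 against WB1 was −0.11 to 0.013 (above 0 without WB1 replicate 3). On the adjusted p alone, members called numbered 2 in D11 and 2 in WB1 against TPC1 and 2 in WB1 against D11, and metal handling genes called numbered 9, 6 and 3 in D11, WB1 and TD5. DICER1 in WB1 (−0.43) was then called, as it was with GC (−0.62) or length (−0.59) correction, with or without the block. With a pseudocount of 4 the metal handling count in TD5 was 0. Leaving out 1 library gave metal handling counts of 0 to 1 for D11 (1 if TPC1 replicate 1 or D11 replicate 1 was dropped) and 0 to 1 in TD5 (0 without TPC1 replicate 1), and 1 to 3 members differing among the 4 lines (1 without D11 replicate 2 or D11 replicate 3). The causes were not tested. With the replicate block MT1E was −1.22 in WB1 against D11 and 1.00 in TD5 against WB1, and beside the values given above the block changed no other call. The share of called genes that were higher was 59.7% in D11 and 68.1% in WB1 with sum scaling, 48.4% and 55.9% with median-of-ratios scaling, 46.1% and 60.6% with GC correction, and 44.1% and 55% with length correction. The clone effect cannot be told apart from the genotype, and 3 libraries a line limit the precision.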
